A study of Mus musculus with 6 samples.

Results

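The early B cell factor genes *Ebf1*, *Ebf2*, *Ebf3* and *Ebf4* and the chromatin organiser gene *Satb1* were followed in 6 single-cell libraries of autonomic ganglia of postnatal day 5 mice. They were taken by symbol from the gene list of the count files, and are 5 of its 32285 genes. All animals were pups of both sexes that carried a Cre transgene and the *RosatdT* reporter, a red fluorescent protein that Cre switches on, and none was treated. The sympathetic ganglia were the stellate, the coeliac and the lumbar chain, with 1 library each. The parasympathetic ganglion was the sphenopalatine, with 1 library. The pelvic ganglion had 2 libraries, called pelvic 1 and pelvic 2. Sphenopalatine, stellate and pelvic 1 were made in round 1 with version 2 of the droplet chemistry, and coeliac, lumbar and pelvic 2 in round 2 with version 3. Each ganglion was dissociated whole, after fat was removed and with no sort on the reporter, so neurons, glia and connective tissue cells were all captured. The number of animals behind a library and whether the 2 pelvic libraries came from separate animals are not stated in the sources used here. Spread between libraries may therefore be technical. In tests between classes, p-values measure how class differences vary between libraries, most of them of different ganglia. In tests of pelvic against sympathetic libraries, p-values measure spread within each side, which on the sympathetic side is between ganglia.

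EBF proteins share a DNA-binding domain and bind as dimers of the same or of different family members. *Ebf1* is best known for committing lymphoid progenitors to the B cell fate, *Ebf2* for precursors of brown fat and bone, and *Ebf2* and *Ebf3* for olfactory and cortical neurons. *Ebf4* is the least studied of the family. *Satb1* encodes a homeodomain protein that anchors chromatin loops, and is best known from thymocytes and from maturing interneurons of the cortex.

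In GENCODE M21 (GRCm38), *Ebf1* (ENSMUSG00000057098) lies on chromosome 11 from 44617317 to 45008091 on the plus strand. *Ebf2* (ENSMUSG00000022053) lies on chromosome 14 from 67233292 to 67430918, plus strand. *Ebf3* (ENSMUSG00000010476) lies on chromosome 7 from 137193673 to 137314445, minus strand. *Ebf4* (ENSMUSG00000053552) lies on chromosome 2 from 130295169 to 130370481, plus strand. *Satb1* (ENSMUSG00000023927) lies on chromosome 17 from 51736187 to 51833290, minus strand. All 5 are protein coding. The annotated transcripts of any pair of members shared 0 words of 31 bases, so reads of the paralogs can be told apart at this length. Between 0 (*Ebf4*) and 6 (*Satb1*) other annotated genes overlap a member.

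The results turn on a contrast between *Ebf1* and *Ebf3*, so a stretch of 250 bases before a RefSeq start of each is shown, with *Satb1*, read from RefSeq sequence (GRCm38.p6) on the gene's strand, 5′ to 3′. RefSeq windows were matched for 4 of the 5 members, *Ebf2* being the exception, with 9 windows in all. The *Ebf3* window is chr7:137314446-137314695 on the minus strand and ends at the gene's first base. The *Ebf1* window is chr11:44619978-44620227 on the plus strand, inside the gene and outside its annotated exons. The *Satb1* window is chr17:51833291-51833540 on the minus strand, directly before the gene. Capitals mark CCCNNGGG, the core of the sequence that EBF dimers bind, which reads the same on both strands and is nested in the longer form TCCCNNGGGA.
Ebf3: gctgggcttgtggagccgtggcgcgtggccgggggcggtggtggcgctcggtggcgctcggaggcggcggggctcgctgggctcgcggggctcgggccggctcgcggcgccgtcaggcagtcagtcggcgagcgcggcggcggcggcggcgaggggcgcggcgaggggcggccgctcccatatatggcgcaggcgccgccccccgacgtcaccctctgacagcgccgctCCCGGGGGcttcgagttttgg
Ebf1: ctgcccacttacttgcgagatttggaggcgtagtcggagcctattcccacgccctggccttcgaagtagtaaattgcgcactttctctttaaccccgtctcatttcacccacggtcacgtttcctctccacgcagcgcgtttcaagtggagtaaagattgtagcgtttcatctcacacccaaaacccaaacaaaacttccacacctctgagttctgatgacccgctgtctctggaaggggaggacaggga
Satb1: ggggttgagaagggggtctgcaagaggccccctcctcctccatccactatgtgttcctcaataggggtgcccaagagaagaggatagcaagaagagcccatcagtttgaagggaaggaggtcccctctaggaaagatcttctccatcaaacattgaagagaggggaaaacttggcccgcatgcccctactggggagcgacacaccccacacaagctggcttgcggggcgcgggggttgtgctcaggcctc

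The core occurred in 1 of the 9 windows of members, that of *Ebf3*, 13 bases before the start, as CCCGGGGG. Of all 32851 RefSeq windows of this length, 11.8% held the core and 0.779% the longer form. The *Ebf3* window had 80.0% G and C, against a median of 52.4% over all windows and 52.0% in the *Ebf1* window shown. This was not particular to *Ebf3*. Another *Satb1* window had 80.8% and the *Ebf4* window 75.2%, while the other *Ebf1* window had 40%. The match is a description of these letters and no site of binding.

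The libraries held 30777 droplets, of which 21442 passed the filters on genes and mitochondrial RNA, and 7052 of these were neurons by their neuronal and glial marker genes. Median depth was 26651 to 108598 unique molecular identifiers (UMIs, the tags that count captured RNA molecules) per neuron, and 3382 to 11933 per glial cell. The version 3 libraries were deeper, and levels are therefore given as CPM, the UMIs of a gene per 1000000 UMIs of the class, with 95% Poisson counting intervals. Pairs of libraries shared 0 to 49 cell barcodes, at most 1.06% of the smaller library. The labels name ganglia and give no transmitter. Of 1903 sphenopalatine neurons, 1537 had over 75% of their transmitter gene UMIs from cholinergic genes and 8 had under 25%. A further 315 lay between these bounds, and 43 had under 5 such UMIs. Under 25% was found in 2664 of 2724 stellate, 235 of 237 coeliac and 877 of 930 lumbar neurons. Over 75% was found in 732 of 893 pelvic 1 and 294 of 365 pelvic 2 neurons, and under 25% in 135 and 33.

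In neurons, *Ebf1* was high in the sympathetic and pelvic ganglia and low on average in the sphenopalatine, and *Ebf3* was found in the sphenopalatine. *Ebf1* stood at 59.9 CPM in sphenopalatine neurons, against 384 in stellate, 279 in coeliac, 463 in lumbar, 561 in pelvic 1 and 473 in pelvic 2. The lowest of the other 5 libraries, the coeliac, was above the sphenopalatine with no overlap of counting intervals, 271 to 287 CPM against 58.2 to 61.7. Within round 1, the stellate was 6.40-fold (95% counting interval 6.21 to 6.61) and pelvic 1 9.36-fold (9.06 to 9.66) above the sphenopalatine. At least 1 *Ebf1* UMI was found in 47.1% of sphenopalatine neurons (Wilson 95% interval 44.9 to 49.4) and in 94.5 to 98.9% of the neurons of each other library. After each neuron was thinned to 4000 UMIs, these shares were 18.2% and 62.1 to 82.7%. The sphenopalatine level was uneven among neurons. Per 10000 UMIs of a neuron, the median of *Ebf1* was 0 there and 2.73 to 5.90 in the other libraries. More than 2 per 10000 were found in 11.3% of sphenopalatine neurons and in 61.2 to 88.4% of the neurons of each other library. Whether these sphenopalatine neurons form a distinct group was not tested. The sphenopalatine has 1 library and its difference from the other ganglia was not tested, and intervals cover counting error of UMIs, not differences between animals.

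*Ebf3* ran the other way. It stood at 32.4 CPM (interval 31.1 to 33.7, 2460 UMIs) in sphenopalatine neurons. In the other libraries it was between 0.221 CPM in the lumbar chain and 0.501 in the coeliac, from 9 to 22 UMIs each. In round 1 the sphenopalatine was 117-fold above the stellate (76.9 to 187) and 132-fold above pelvic 1 (69.4 to 289). *Ebf3* UMIs were found in 63.5% of sphenopalatine neurons and in 0.624 to 2.53% of neurons elsewhere. After each neuron was thinned to 4000 UMIs, the share was 12.8% in the sphenopalatine, 0.336% in pelvic 1, 0.287% in pelvic 2, 0.148% in the stellate and 0 in the coeliac and lumbar libraries. Glial cells could be set beside neurons at 2000 UMIs, where the sphenopalatine had 6.57% of neurons and 0.589% of glial cells, and the other libraries 0 to 0.110% of neurons and 0 to 0.143% of glial cells. At this depth *Ebf3* in neurons outside the sphenopalatine could not be told apart from its share in glial cells.

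**Figure D1:**
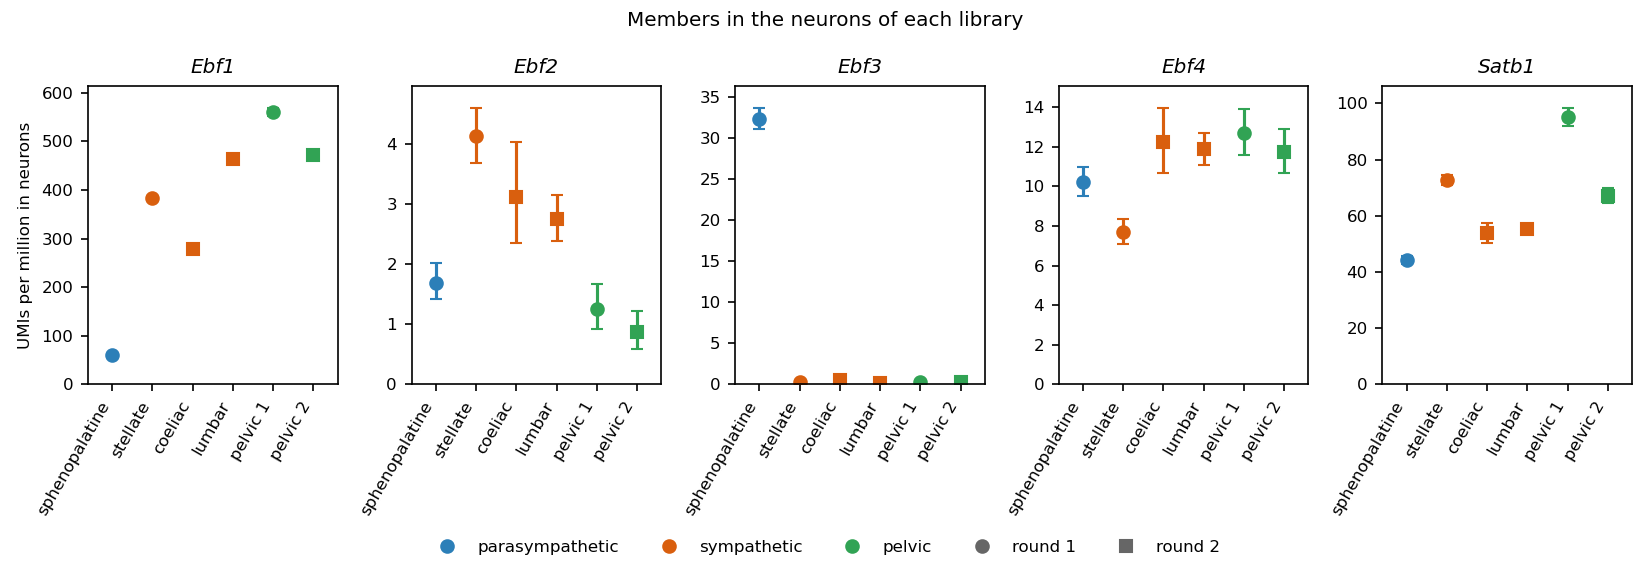
CPM (vertical axes, linear, a scale for each gene) of each member in the neurons of the 6 libraries (horizontal axes), with exact Poisson 95% intervals, colour by division and marker shape by round. *Ebf1* is at 59.9 in the sphenopalatine and from 279 to 561 elsewhere, and *Ebf3* at 32.4 in the sphenopalatine and at most 0.501 elsewhere.

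The 2 paralogs were not exclusive in single sphenopalatine neurons. Of 1903, 636 (33.4%) had UMIs of both, 573 (30.1%) of *Ebf3* alone, 261 (13.7%) of *Ebf1* alone and 433 (22.8%) of neither. Neurons with *Ebf3* UMIs had *Ebf1* at 64.2 CPM and those without had 50.8 CPM. Median depth was 40393 UMIs in neurons with both, 41422 with *Ebf3* alone, 33957 with *Ebf1* alone and 34824 with neither. Both groups with *Ebf3* UMIs were thus deeper than both groups without. The part of depth in these shares was not tested. In the other 5 libraries 0 neurons had *Ebf3* UMIs without *Ebf1* UMIs. Few had *Ebf3* UMIs at all: 17 in the stellate, 6 in the coeliac, 7 in the lumbar chain, 9 in pelvic 1 and 6 in pelvic 2. With *Ebf1* UMIs in 94.5 to 98.9% of neurons there, few or no such cells would be found even with no relation between the genes. No relation between them can be read from this 0.

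**Figure D2:**
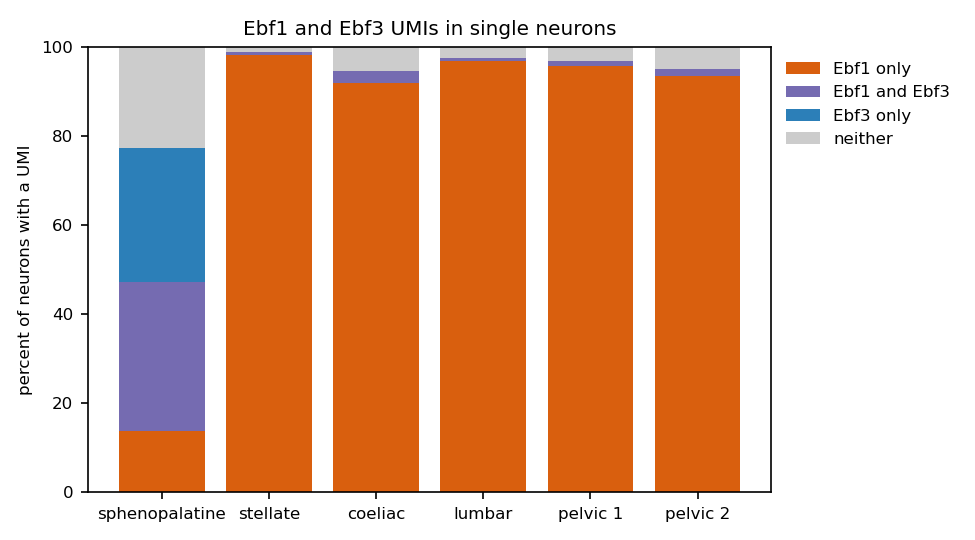
Percent of the neurons of each library (vertical axis) with UMIs of *Ebf1* alone, of both genes, of *Ebf3* alone or of neither, at unequal depths. The sphenopalatine bar holds 30.1% with *Ebf3* alone, a part that is absent from the 5 other bars, where 6 to 17 neurons a library had *Ebf3* UMIs.

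The remaining members varied less among the neurons of different ganglia. *Satb1* was at 44.2 CPM in the sphenopalatine, 72.8 in the stellate, 53.8 in the coeliac, 55.4 in the lumbar chain, 95.1 in pelvic 1 and 67.0 in pelvic 2. Pelvic 1 was 2.15-fold above the sphenopalatine of the same round (2.05 to 2.26), while the coeliac and lumbar values had overlapping intervals. *Ebf4* was lowest in the stellate, at 7.71 CPM (7.11 to 8.35), and between 10.2 and 12.7 in the other 5 libraries, where the coeliac, lumbar and both pelvic intervals overlapped. *Ebf2* was low in all 6 libraries, from 0.867 CPM in pelvic 2 to 4.13 in the stellate, on 32 to 328 UMIs a library.

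Across the other cells of the ganglia the members split by tissue. *Ebf1* was highest in mural cells, the pericytes and smooth muscle around vessels, at 1001 to 1600 CPM over the 6 libraries. It stood at 406 to 648 CPM in endothelial cells and 237 to 379 in fibroblasts. The ranges of these classes did not overlap each other. Glial cells, from 5.06 to 31.05 CPM, and macrophages, from 0 to 51.9, were far below. Among mural clusters, those led by the pericyte gene *Kcnj8* and by *Acta2* with *Rgs5* had 1448 and 1615 CPM, and the one led by the smooth muscle genes *Acta2*, *Tagln* and *Myh11* had 416.

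*Ebf1* in glial cells was set beside the neuronal RNA found there. The glial level was 2.22 to 8.44% of the neuronal level over the 6 libraries. The 4 genes that marked neurons here, *Tubb3*, *Gap43*, *Stmn2* and *Stmn3*, stood in glial cells at 2.82 to 19.9% of their neuronal levels. The *Ebf1* percentage was below the lowest of the 4 markers in 4 libraries and within their range in coeliac and lumbar. The glial *Ebf3* level of the sphenopalatine, 2.30 CPM on 15 UMIs, was 7.10% of the neuronal level, where these markers had 9.48 to 11.3%. Whether the glial UMIs of *Ebf1* and *Ebf3* came from neurons was not tested.

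*Ebf2* was highest in fibroblasts, at 210 to 335 CPM in fibroblasts of the 6 libraries. Mural cells had 36.8 to 105 CPM, endothelial cells 7.92 to 17.6 and glial cells 0.525 to 1.34. The fibroblast range did not meet that of these classes, of neurons or of macrophages. Among fibroblast clusters *Ebf2* went from 36.4 CPM, in a cluster led by *Dcn*, *Clec3b* and *Lum*, to 382 CPM, in one led by *Lum*, *Thbs4* and *Col1a1*. The former held 285 of its 313 cells from pelvic 1 and the latter cells of round 2 alone, so this contrast also crosses round. A cluster led by *Igfbp6*, *Dcn* and *Mfap5*, with 435 of 444 cells from pelvic 1, had 283 CPM. In neurons *Ebf2* stood at 0.353 to 1.39% of the fibroblast level, and the 7 fibroblast markers had medians of 0.107 to 0.496% of theirs. In the stellate, coeliac and lumbar neurons the *Ebf2* percentage was above that of each of the 7 markers. In the sphenopalatine and both pelvic libraries it was within the markers' range.

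Outside the sphenopalatine neurons *Ebf3* was highest in cells of vessels among the 6 classes, at 55.6 to 146 CPM in endothelial cells and 20.2 to 88.2 in mural cells. These ranges split by round. Endothelial cells had 55.6 to 66.7 CPM in round 1 and 106 to 146 in round 2, and mural cells 20.2 to 31.8 and 70.1 to 88.2. Fibroblasts had 3.84 CPM in the stellate, 13.3 in the sphenopalatine, 11.9 in the coeliac, 12.4 in the lumbar chain, 28.2 in pelvic 1 and 41.9 in pelvic 2. The 2 pelvic values were above all others. In sympathetic neurons *Ebf3* stood at 1.79 to 7.22% of the fibroblast level, above each of the 7 fibroblast markers in each of the 3 libraries, on 9 to 22 UMIs. In pelvic 1 and pelvic 2 neurons it stood at 0.870% and 0.582%, within the markers' range. Endothelial and mural cells had more *Ebf3* than fibroblasts in these libraries, and neurons were not set beside markers of those cells. Whether neuronal *Ebf3* UMIs came from other cells was not tested. The main endothelial cluster, led by *Gpihbp1*, had 89.1 CPM and a cluster led by *Cldn5* and *Gkn3* had 8.46, on 6 UMIs.

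*Ebf4* and *Satb1* had their highest median over the 6 libraries in neurons, of these 6 classes. *Ebf4* was at 7.71 to 12.7 CPM in neurons, 2.57 to 5.95 in glial cells, 1.77 to 9.39 in fibroblasts, 0 to 8.21 in mural cells, and at most 2.23 in endothelial cells and macrophages. *Satb1* was at 44.2 to 95.1 CPM in neurons and 29.3 to 57.8 in glial cells, ranges that overlapped, and at most 22.6 CPM in fibroblasts, mural cells, endothelial cells and macrophages. Its glial level was 32.1 to 104% of the neuronal level, above that of each of the 4 neuronal markers in every library. Of the 44 mast cells, *Satb1* stood at 108 CPM on 47 UMIs, 29 of them from pelvic 2. Myelinating Schwann cells had 38.7 CPM, on 38 UMIs.

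**Figure D3:**
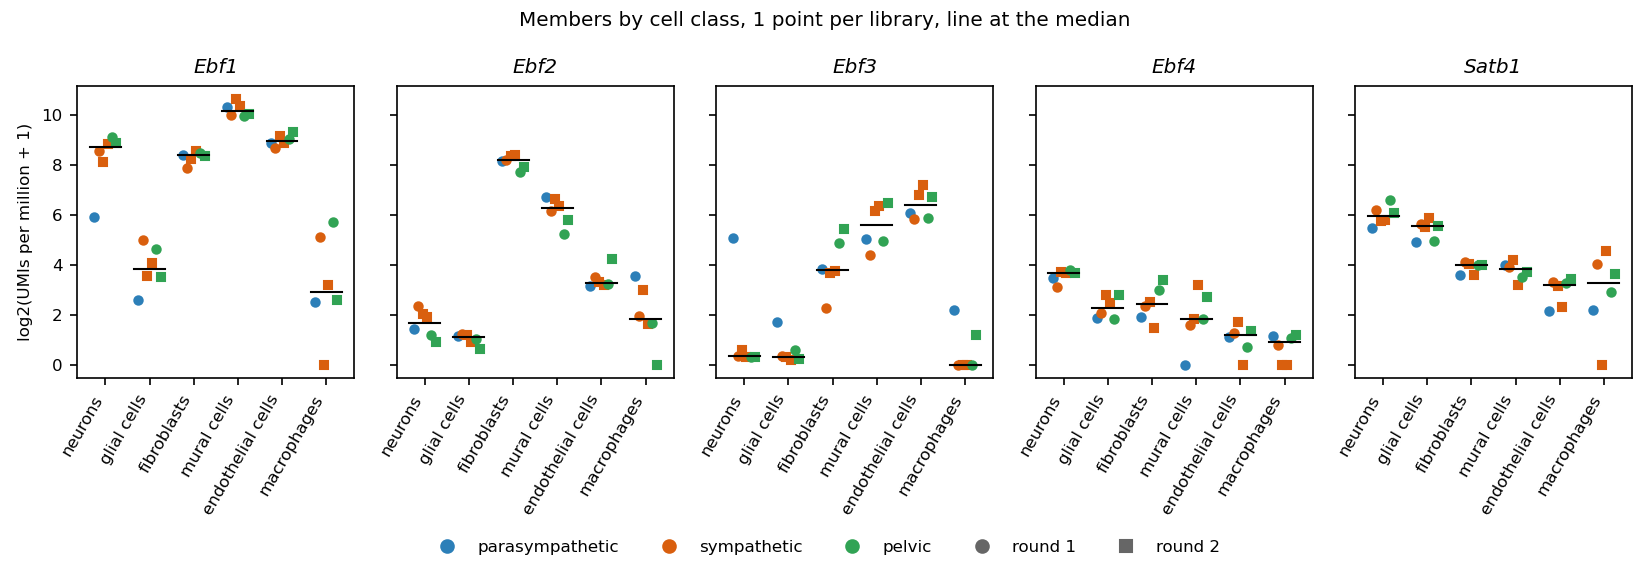
log2(CPM + 1) of each member (vertical axis) by cell class (horizontal axes), 1 point per library with colour by division and marker shape by round, and a line at the median of 6 libraries. The sphenopalatine point is apart in neurons for *Ebf1* and *Ebf3*, and *Ebf2* is highest in fibroblasts.

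The same differences were tested within libraries by edgeR's quasi-likelihood test on summed counts of all classes, with library as a block. Against glial cells 4 of 5 members were higher in neurons and 0 lower, where 38.3% of the 14327 genes tested were higher and 33.6% lower. *Ebf1* was higher by 4.65 on the log2 scale (SE 0.67, adjusted p = 3.31e-11), *Ebf4* by 1.61 (SE 0.32, adjusted p = 1.31e-06) and *Satb1* by 0.73 (SE 0.22, adjusted p = 0.00141). *Ebf1* and *Ebf4* were higher in neurons in 6 of 6 libraries and *Satb1* in 5, the lumbar chain being the exception. *Ebf2* was higher by 1.23 (SE 0.38, adjusted p = 0.00216), a call that was lost, at 0.85 and adjusted p = 0.0825, without the 170 neurons that carried fibroblast RNA. *Ebf3* did not pass (2.20, SE 1.18, adjusted p = 0.0842).

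Against fibroblasts *Ebf4* and *Satb1* were higher in neurons and *Ebf2* and *Ebf3* lower, against 37.3% higher and 36.3% lower over all genes. *Ebf2* was lower in neurons by a log2 change of -7.06 (SE 0.74, adjusted p = 1.33e-19) and *Satb1* higher by 2.14 (SE 0.32, adjusted p = 1.04e-10). *Ebf3* had a log2 change of -3.69 (SE 0.97, adjusted p = 0.000259), lower in neurons in 5 of 6 libraries and higher, by 1.28, in the sphenopalatine. Without the sphenopalatine the change was -5.80, and with round 1 alone it was -1.78 and lost its call (adjusted p = 0.196). *Ebf1* did not differ from fibroblasts beyond the spread of libraries (-0.01, SE 0.37, edgeR adjusted p = 0.980), and was higher in neurons in 4 of 6 libraries. Its log2 ratio of neurons to fibroblasts was -2.49 in the sphenopalatine and from -0.11 in the coeliac to 0.70 in the stellate among the other libraries.

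Against mural cells all 5 members passed, *Ebf4* and *Satb1* higher in neurons and *Ebf1*, *Ebf2* and *Ebf3* lower, where 37.1% and 29.3% of all genes were higher and lower. *Ebf1* was lower by a log2 change of -1.71 (SE 0.44, adjusted p = 0.000212), in 6 of 6 libraries. Against endothelial cells *Ebf2* (-2.21) and *Ebf3* (-5.98) were lower and *Ebf4* (3.38) and *Satb1* (3.23) higher, against 38.7% higher and 36.8% lower of all genes, and *Ebf1* did not pass (-0.54, SE 0.38, adjusted p = 0.188). Against macrophages *Ebf1* (4.02), *Ebf4* (3.53) and *Satb1* (2.51) were higher, against 39.5% of all genes higher and 30.5% lower, and the other 2 did not pass. The median log2 change over all genes tested was 0.09 against glial cells, 0.02 against fibroblasts, 0.18 against mural cells, 0.04 against endothelial cells and 0.22 against macrophages.

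**Figure D4:**
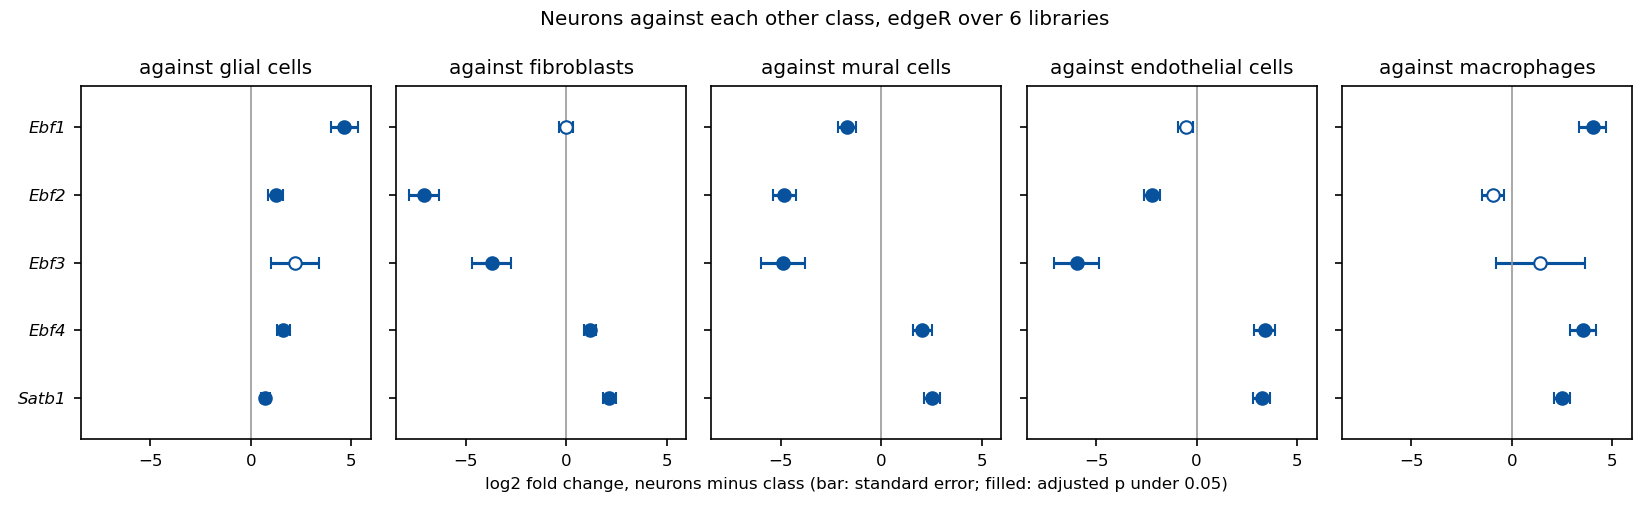
log2 fold change of each member, neurons minus the named class (horizontal axes), with its standard error; filled points have an edgeR adjusted p under 0.05. *Ebf4* and *Satb1* are to the right of 0 in all 5 panels, and *Ebf2* is farthest to the left against fibroblasts, at -7.06.

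The study asks how pelvic neurons relate to sympathetic ones, and here the 2 pelvic libraries were tested against the 3 sympathetic libraries with round as a covariate. Of the 5 members in neurons, 0 were higher and 1 lower in pelvic neurons, where 10.3% of 15715 genes were higher and 8.23% lower. *Ebf1* was at 561 and 473 CPM in pelvic neurons and at 384, 279 and 463 in sympathetic neurons, all pelvic values being above all sympathetic ones. Its log2 change was 0.42 (SE 0.26, adjusted p = 0.258). Within round 1 pelvic 1 was 1.46-fold above the stellate (1.44 to 1.49), and within round 2 pelvic 2 was 1.70-fold above the coeliac (1.64 to 1.75) and 1.02-fold above the lumbar chain (1.00 to 1.04). Without the lumbar library the change was 0.65 and passed (adjusted p = 0.0265). *Satb1* had 0.33 (SE 0.15, adjusted p = 0.110), *Ebf4* 0.29 (adjusted p = 0.345) and *Ebf3* -0.28 (adjusted p = 0.770). These differences were not detectable with 5 libraries.

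*Ebf2* was lower in pelvic than in sympathetic neurons, with 1.25 and 0.867 CPM against 4.13, 3.11 and 2.75, and no overlap. The log2 change was -1.74 (SE 0.46, adjusted p = 0.00305). It was -3.27 without neurons that carried fibroblast RNA (adjusted p = 0.000464), where pelvic neurons had 0.364 and 0.276 CPM and sympathetic neurons 2.66 to 3.48. That cut was chosen after the data were seen, and the pelvic levels left rest on few UMIs. It removed 26 of 893 pelvic 1 and 32 of 365 pelvic 2 neurons. From the stellate it removed 52 of 2724, from the coeliac 7 of 237 and from the lumbar chain 29 of 930. The call was lost without stellate (-1.71, adjusted p = 0.0887), without pelvic 1 (-1.70, adjusted p = 0.0697), without pelvic 2 (-1.77, adjusted p = 0.0631) and without the covariate (-1.66, adjusted p = 0.0519).

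In fibroblasts of the same libraries, *Ebf3* was higher in the pelvic ganglion and *Ebf2* lower, where 2.79% of 12258 genes were higher and 2.28% lower. *Ebf3* rose by 2.06 on the log2 scale (SE 0.48, adjusted p = 0.00270), with 28.2 and 41.9 CPM against 3.84, 11.9 and 12.4. This call held on leaving out each library in turn, with 1.73 to 2.89, and was lost without the covariate (1.86, adjusted p = 0.440), where 0 genes passed. *Ebf2* changed by -0.51 (SE 0.16, adjusted p = 0.0404), with 210 and 245 CPM against 297, 333 and 335, a call that was lost on leaving out any 1 of the 5 libraries. The libraries spread their fibroblasts unequally over clusters. The stellate had 96.3% in a cluster led by *Lum*, *Ccl11* and *Smoc2*, and coeliac and lumbar had 58.1% and 66.25% in the one led by *Lum*, *Thbs4* and *Col1a1*. Pelvic 1 had 59.0% in a cluster led by *Igfbp6*, *Dcn* and *Mfap5* and 38.7% in the *Dcn*, *Clec3b* and *Lum* cluster, and pelvic 2 had 78.7% in the one led by *Dcn*, *Igfbp6* and *Col1a1*, which also held 40.0% of coeliac and 33.75% of lumbar fibroblasts. The *Thbs4* cluster held 19.0% of pelvic 2. The *Ebf3* level was 60.3 CPM in the *Clec3b* cluster, 39.6 in the *Dcn*, *Igfbp6* and *Col1a1* cluster, 11.6 in the *Igfbp6*, *Dcn* and *Mfap5* cluster that held most of pelvic 1, and 3.84 and 8.25 in the 2 clusters led by *Lum*. Each of these clusters held cells almost all of a single round, so levels of clusters from different rounds cannot be told apart from round. The part of cluster makeup in the difference was not tested. In glial cells 0 of the 3 members that passed the filter on low counts were called, where 1.26% of 12995 genes were higher and 1.71% lower, and *Satb1* had -0.38 (SE 0.18, adjusted p = 0.269).

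Within the pelvic ganglion *Ebf1* divided the neurons. Pelvic neurons were clustered without the 5 members and named from marker genes given by the study for its clusters P1 to P4. *Ebf1* stood at 95.9 ± 48.0 CPM (SD, n = 2 libraries) in the P3-like cluster of 164 neurons, led by the noradrenergic genes *Th*, *Slc6a2* and *Dbh*. It stood at 478 ± 47.8 in the P4-like cluster, 511 ± 64.5 in the P2-like, and 596 ± 118 and 689 ± 90.1 in 2 P1-like clusters led by *Cartpt* and *Penk*. The P3-like level was lowest in each library, with 130 CPM in pelvic 1 and 62.0 in pelvic 2. The other named clusters together were 4.86-fold higher in pelvic 1 (4.50 to 5.26) and 8.42-fold higher in pelvic 2 (7.40 to 9.62). An *Ebf1* UMI was still found in 78.6% and 84.8% of P3-like neurons, or 38.2% and 15.2% after thinning to 4000 UMIs. With 2 libraries this is a description with no test.

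*Satb1* was instead lowest in the P4-like cluster of 89 neurons, led by *Calca*, at 30.0 and 20.7 CPM. The other named clusters had 71.4 to 114 CPM in pelvic 1 and 58.0 to 83.2 in pelvic 2. Of the named clusters the P2-like, led by *Grp*, had most *Ebf4*, with 16.8 and 18.1 CPM, against at most 11.4 in the others. *Ebf3* had 0 to 3 UMIs and *Ebf2* 1 to 6 UMIs per named cluster and library. A further cluster of 163 neurons, with 0 named markers and led by the fibroblast and blood genes *Col1a2*, *Col1a1* and *Hbb-bs*, stayed unnamed. It had *Ebf2* at 6.33 and 7.42 CPM and *Ebf1* at 631 and 496. Its *Ebf4* level was 17.4 and 14.1 CPM, above that of the P2-like cluster in pelvic 1.

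**Figure D5:**
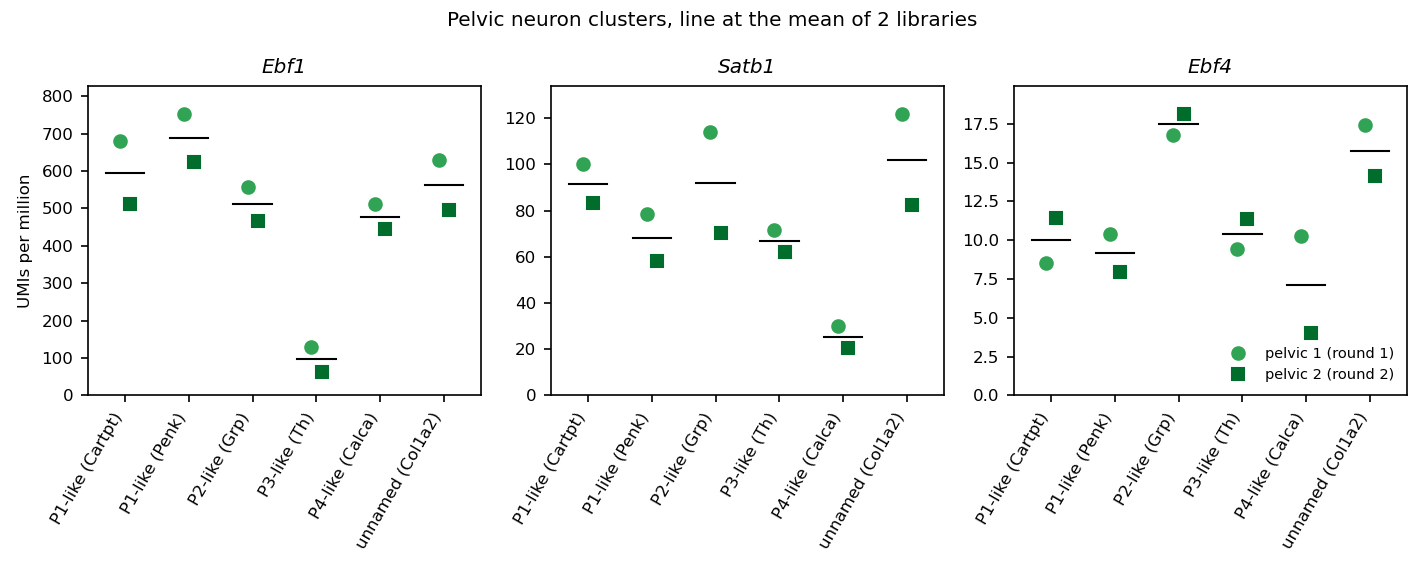
CPM (vertical axes, linear, a scale for each gene) of *Ebf1*, *Satb1* and *Ebf4* in the clusters of pelvic neurons (horizontal axes, leading gene in brackets), 1 point per library with a line at the mean. The P3-like points are lowest for *Ebf1*, at 130 and 62.0, and the P4-like points lowest for *Satb1*, at 30.0 and 20.7.

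Split by transmitter genes, *Ebf1* followed neither transmitter across ganglia. Neurons with under 25% of their transmitter UMIs from cholinergic genes were taken as noradrenergic, and those with over 75% as cholinergic. Noradrenergic neurons had 380 CPM in the stellate, 279 in the coeliac and 459 in the lumbar, and 132 and 62.0 in pelvic 1 and pelvic 2. Cholinergic neurons had 58.0 CPM in the sphenopalatine, and 637 and 523 in pelvic 1 and pelvic 2. Noradrenergic pelvic neurons numbered 135 and 33. Between these bounds lay 315 sphenopalatine neurons and at most 45 in any other library. *Ebf3* was at 33.7 CPM in cholinergic sphenopalatine neurons and 0.230 and 0.278 in cholinergic pelvic neurons. *Satb1* was at 71.8 and 62.0 CPM in noradrenergic and 99.01 and 67.4 in cholinergic pelvic neurons.

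A cluster of 307 chromaffin-like cells, led by *Cfap61* and *Sytl4*, was present in 5 libraries. It was named from markers that included *Chga*, *Chgb*, *Pnmt* and *Dbh*, of which *Chga* alone was among its 10 leading genes. The cluster had *Ebf1* at 587 CPM in 57 stellate, 301 in 39 coeliac and 447 in 12 lumbar cells. The lumbar cells were fewer than the 20 required for a class sum. In the 165 pelvic 1 cells of the cluster *Ebf1* was at 61.3 CPM (47.9 to 77.4), and in 34 pelvic 2 cells at 9.25 (3.39 to 20.1), on 6 UMIs. All sympathetic values were above both pelvic values.

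Known partners of EBF proteins were followed from a list of 8 genes, of which 7 were tested. Against glial cells 2 were higher and 5 lower in neurons, where 38.3% of all genes were higher and 33.6% lower, with a median log2 change of -1.41 against 0.09 over all genes. *Zfp423*, a zinc finger protein that binds EBF1, was higher in neurons by 1.34 (SE 0.31, adjusted p = 3.25e-05), and its relative *Zfp521* lower by -2.64 (SE 0.36, adjusted p = 1.19e-12). Between pelvic and sympathetic neurons 2 of the 7 were higher and 0 lower, where 10.3% of all genes were higher and 8.23% lower (median 0.72 against -0.02 over all genes). *Zfp423* had 55.5 and 38.6 CPM in pelvic and 13.7, 13.8 and 11.3 in sympathetic neurons (log2 change 1.79, SE 0.39, adjusted p = 0.000379), and 32.8 in the sphenopalatine. *Foxo1*, a transcription factor that acts with EBF1 in B cells, had 5.97 and 4.69 CPM against 1.47, 0.834 and 1.26 (2.05, SE 0.52, adjusted p = 0.00194), and 3.63 in the sphenopalatine. Its levels were far higher in glial cells, at 50.2 to 93.7 CPM, and in endothelial cells, at 63.0 to 132. Whether *Foxo1* UMIs in neurons came from such cells was not tested. In the pelvic ganglion *Zfp423* had 90.4 and 67.4 CPM in the P2-like cluster and 74.0 and 52.3 in the unnamed one. The P1-like clusters had 38.6 and 32.6 (*Cartpt*) and 39.4 and 29.6 (*Penk*). The P3-like cluster had 25.1 and 21.7, and the P4-like was lowest, at 18.0 and 13.3.

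Of 6 partners of SATB1, all tested, 1 was higher and 4 lower in neurons than in glial cells, against 38.3% and 33.6% of all genes (median -0.72 against 0.09). *Ctbp1*, a corepressor, was higher by 0.29 (edgeR adjusted p = 0.0134) and *Hdac1*, a histone deacetylase, lower by -2.04 (adjusted p = 2.87e-15). The direction of *Ctbp1* split by round. In round 1, sphenopalatine, stellate and pelvic 1 neurons had 176, 226 and 225 CPM, against 207, 230 and 284 in glial cells. In round 2, coeliac, lumbar and pelvic 2 neurons had 164.5, 166 and 148 CPM, against 111, 107 and 120. Between pelvic and sympathetic neurons 0 were higher and 1 lower, against 10.3% and 8.23% of all genes, namely *Hdac2*, with a log2 change of -0.76 (SE 0.21, adjusted p = 0.00569).

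Genes known as EBF targets in other tissues were followed in 3 lists. Between pelvic and sympathetic neurons 1 of 6 B cell, 3 of 4 olfactory and 1 of 3 adipocyte targets were tested. Of those tested, 1 gene was higher and 1 lower, where 10.3% of all genes were higher and 8.23% lower. Of the 6 B cell targets, 1 passed the filter in the comparison of pelvic with sympathetic neurons, *Cd79a*, a chain of the B cell receptor complex. It was higher in pelvic neurons by 2.19 (SE 0.65, adjusted p = 0.00843), at 2.04 and 1.03 CPM against 0.277, 0.334 and 0.332. In the pelvic ganglion its UMIs lay in the P3-like cluster, the cluster with the lowest *Ebf1* level, with 67 and 35 UMIs (12.9 and 9.27 CPM), against at most 5 UMIs in any other cluster and library. In the class comparisons *Cd79b* was the B cell target tested. It was lower in neurons than in endothelial cells (-4.39, edgeR adjusted p = 2.55e-05) and macrophages (-10.7, adjusted p = 7.24e-16). There 36.8% and 30.5% of all genes were lower. *Cd79b* was not called against glial cells, fibroblasts or mural cells. Of the 4 olfactory targets, 3 were tested, and all 3 were higher in neurons than in glial cells, against 38.3% of all genes (median 2.30 against 0.09). Against fibroblasts 2 were higher and 0 lower, where 37.3% of all genes were higher and 36.3% lower. Against mural cells 2 were higher and 1 lower, where 37.1% and 29.3% of all genes were. The lower one was *Adcy3* (-0.80, edgeR adjusted p = 0.00434). *Omp*, the olfactory marker protein gene, had 22.8, 8.17 and 15.2 CPM in stellate, coeliac and lumbar neurons, against 0.681 and 0.460 in pelvic and 0.645 in sphenopalatine neurons. It was lower in pelvic than in sympathetic neurons by -4.90 (SE 1.06, adjusted p = 0.000337). The adipocyte targets *Pparg* and *Cebpa* were lower in neurons than in fibroblasts by -1.21 (adjusted p = 0.0486) and -5.74 (adjusted p = 2.07e-15), where 36.3% of all genes were lower. Against glial cells *Pparg* was higher in neurons by 3.44 (edgeR adjusted p = 0.00285) and *Cebpa* lower by -2.03 (adjusted p = 0.000189). There 38.3% of all genes were higher and 33.6% lower. The third adipocyte target, *Ucp1*, did not pass the filter, and *Cebpa* did not pass it between pelvic and sympathetic neurons.

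Across the 36 class sums, the genes whose log2(CPM + 1) was most like each member were named by Pearson correlation among 13340 genes. For *Ebf1* these were *A4galt* (r = 0.892), *Tsc22d1* and *Pde3a*. For *Ebf2* they were *Ccl11* (r = 0.965), *Tbx18* and *Ifitm1*, and for *Ebf3* *Mast4* (r = 0.926), *Emcn* and *Lrrc32*. For *Ebf4* they were *Adam22* (r = 0.896), *Ccdc30* and *Tro*, and for *Satb1* *Hspa4l* (r = 0.912), *Capn5* and *Kif21a*. Among the members themselves the correlation was highest for *Ebf4* with *Satb1* (0.690) and lowest for *Ebf3* with *Satb1* (-0.450). Sums of a library share its depth and chemistry, and those of a class its cell type, so the 36 points are not independent.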

How the data were processed

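Single cells in 6 libraries of ganglia were counted by the authors with Cell Ranger 6.0.1 on mm10, per the submitters' processing notes and the labels, and the deposited values are raw counts of UMIs per gene and droplet, not normalized. A droplet was kept when it had more than 1500 but fewer than 11000 detected genes, with mitochondrial UMIs below 15%. Neurons were cells with a mean sctransform 0.4.2 (Seurat 5.3.0) value of neuronal markers above 3 and of glial markers below 1.15, which also removes neuron-glia doublets. Other cells were clustered without the 5 members (scanpy 1.11.5, 3000 variable genes, 50 components, Louvain resolution 1.0) and named from fixed markers; Scrublet called 365 doublets, which were kept. Cycling clusters were left out of tests. Pelvic neurons were clustered at resolution 0.3. Counts were summed per class and library (at least 20 cells; 243635 to 79382522 UMIs per sum) and tested with edgeR 4.0.16 (quasi-likelihood, TMM, Benjamini-Hochberg over all genes tested, threshold 0.05). The SE is the log2 change divided by the normal quantile of its p. Confidence intervals are at 95% (Poisson, binomial or Wilson). The members and gene lists were chosen with earlier results of these data known, and named genes are those members and lists, the 3 genes most correlated with each member among those with at least 10 CPM in a sum, and the markers; genes that lead clusters were named after their values were seen. Alternatives were DESeq2, RLE scaling, no filter on low counts, other cell minimums, blocks and neuron definitions, doublets removed, each round alone and each library left out. The test was checked on simulated counts. The gene whose promoter drives Cre is not reported here.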

Additional observations from a re-analysis of the deposited data

Results flagged for a closer look

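In 30 sets of 6 library values (5 members in 6 classes), 4 had a library apart from the others. Its gap to the nearest other, as a share of the range, was above the limit of 0.625 for 6 values. About 1 in 20 sets of independent, normally spread values would pass that limit. These sets share the same 6 libraries and some hold few UMIs, so 4 of 30 cannot be read against that rate. *Ebf3* in neurons had a share of 0.991, from the sphenopalatine at 32.4 CPM. The sphenopalatine was also apart for *Ebf3* in glial cells (0.822, 15 UMIs) and in macrophages (0.650, 3 UMIs). *Ebf2* in endothelial cells had 0.757, from pelvic 2 at 17.6 CPM.

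The log2 ratio of neurons to another class had opposite signs in all libraries of 2 divisions in 6 cases, a difference that was not tested. For *Ebf1* against fibroblasts, the sphenopalatine ratio was 3.06 below the pelvic mean (a difference of -3.06). For *Ebf3* against fibroblasts, the sphenopalatine ratio was 6.003 above the mean of the sympathetic and 8.41 above that of the pelvic libraries. Against mural cells the differences were 7.31 and 7.75, where the sphenopalatine ratio itself was 0.02. Against macrophages the difference from pelvic 2, the pelvic library with a UMI in macrophages, was 5.54.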

How the results depend on the processing

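No paired analysis was possible because the groups share a single replicate number; pairing of classes within a library is part of the design. Counts of genes called in the 5 class comparisons stayed within 1.5 times under every alternative that was run. For pelvic against sympathetic neurons 2915 genes were called, with 1086 without the covariate and 654 to 4034 on leaving out each library (654 without stellate, 761 without pelvic 1, and also under 1086 without pelvic 2). For glial cells 386 were called, with 1031 with no filter, 0 without the covariate (edgeR, with 346 at an unadjusted p under 0.05) and 74 to 790 on leaving out each library (74 without stellate, 77 without pelvic 1, 790 without coeliac, and also over 1.5 times higher without pelvic 2). For fibroblasts 622 were called, with 1567 with no filter, 0 without the covariate (edgeR, with 679 at an unadjusted p under 0.05) and 381, without pelvic 1, to 928 on leaving out each library. DESeq2 was not run without the covariate. With DESeq2's own scaling and genes the median log2 change over all genes was -0.19 against mural cells and -0.09 against macrophages, and the calls of members were those of edgeR in number and direction. Where a library left out leaves 1 pelvic library, it is assumed to vary like the others. The gap between the lowest other *Ebf1* share and the sphenopalatine share was 47.4 percentage points, with 54.5 for at least 2 UMIs and 43.9 after thinning. The *Ebf3* gap was 61.0, with 34.4 and 12.5. The P3-like *Ebf1* gap moved from 16.2 to 59.7 points after thinning. Of 563 alternatives for members, 542 kept their direction or stayed uncalled, 16 lost and 5 gained a call, and 0 called values reversed. Those not named above were *Satb1* against glial cells in round 2 alone (0.46, adjusted p = 0.132), *Ebf3* without library block (3.44 and called against glial cells, -1.73 and not called against fibroblasts), *Ebf3* against mural cells in round 1 alone (-2.45, adjusted p = 0.113), *Ebf3* against macrophages with the classes alone (2.40), *Ebf2* against macrophages without pelvic 2 (-1.08), between pelvic and sympathetic fibroblasts *Ebf2* without the covariate (-0.54, adjusted p = 0.914) and *Ebf4* with no filter (1.16, adjusted p = 0.00554). Leaving out neurons with at least 5 fibroblast marker UMIs per 10000 was chosen after seeing the data. Levels under 1 CPM rest on few UMIs.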
